A study of Saccharomyces cerevisiae with 6 samples.

Results

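The 30 genes described here belong to the general and oxidative stress response of Saccharomyces cerevisiae. They were chosen by name, among 6388 genes in the authors' deposited tables, without genes on chromosome XII, chaperones or genes of storage carbohydrates. Earlier results of these data were known when they were chosen. They fall into 5 groups by role: 4 regulators of the response, 6 small stress proteins, 6 enzymes and carriers of peroxide and superoxide defence, 9 metabolic enzymes, and 5 proteins of membranes and organelles. The study asked what the loss of KNR4 does to the transcripts of a wine yeast during alcoholic fermentation. The mutant, EKD-13, was built in EC1118 by deleting both copies of KNR4 (also named SMI1), and the wild type was EC1118 itself, an industrial wine strain. Both were grown at 28 °C in 1 L of MS300, a synthetic grape-must medium, and RNA was taken in mid-exponential phase, once 10 g of CO2 had been released, or in stationary phase, at 70 g. Each of 6 two-colour spotted arrays, 3 per phase, held RNA of EKD-13 beside RNA of EC1118 from the same stage, made from 5 µg of total RNA each.

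Budding yeast meets heat, osmotic, oxidative and nutrient stress with a shared set of induced genes, many of them under the zinc-finger factors Msn2 and Msn4. These factors bind stress response elements in promoters, and protein kinase A and TOR signalling keep them out of the nucleus while the cell grows on plentiful sugar. A second branch, run by Yap1 and Skn7, acts mainly on peroxide and thiol defence. In wine fermentation the genes of the response are known to be induced as cells leave growth and face ethanol and nitrogen depletion.

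In either phase EKD-13 carried Cy3 on array 2 and Cy5 on the other arrays, so that dye and mutant did not fully balance. Some fermentation vessels served in both phases: those of both strains on arrays 3, that of EKD-13 on arrays 1 and that of EC1118 on arrays 2. The array numbers therefore pair the phases in part. Ratios are log2 of EKD-13 over EC1118, and a negative value means less transcript in the mutant. On every array, 98.6 to 100% of the genes that the authors called had the authors' sign, so the Cy3 arrays had been turned before deposit. KNR4 was lower in EKD-13 in the authors' deposited table, at -1.89 in mid-exponential phase (adjusted p = 0.000273) and -1.74 in stationary phase (adjusted p = 0.000245), and its only array ratio was -4.51, on mid-exponential array 3. Of 15488 spots, 53.1 to 85.6% carried a ratio on a given array, and the stationary arrays were the sparser ones. Because ratios come from bulk cultures, fewer cells that express a gene and less transcript per cell cannot be told apart.

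Stationary array 2 stood apart. Its vessel codes were F13 for EKD-13 and F22 for EC1118, and the first digit was taken here as the fermentation set. By that reading it was the only array whose RNAs came from different fermentation sets, set 1 for EKD-13 and set 2 for EC1118. Across the 3020 genes measured on all 6 arrays it correlated at 0.15 with stationary array 1 and at 0.01 with array 3, while arrays 1 and 3 correlated at 0.58. Across the 18 members measured on all 6 arrays the same values were -0.05, -0.35 and 0.84. These are correlations across genes, which are not independent replicates. Its dye orientation was shared with mid-exponential array 2, where both RNAs came from set 2. On stationary array 2 the dye and the difference in fermentation set cannot be told apart.

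Of the 30 members, 28 had a ratio on at least 1 array. HOR7 and GAD1 had none that could be tied to their names, and their values come from the authors' deposited table alone. The limma model over all 6 arrays tested a gene where 2 or more arrays per phase had measured it, which kept 20 members among 4289 genes. XBP1, DCS2, HSP12, DDR2, HOR7, GND2, GAD1, ALD2, PHM7 and OM45 were not tested in it. The authors' table gives every member a value, but 8 members in mid-exponential phase and 4 in stationary phase were in the dimmest 25% of genes there.

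On each array the members lay lower than genes at large. In mid-exponential phase their median log2 ratio was -0.21, -0.33 and -0.47 on arrays 1 to 3, against -0.01, -0.04 and 0.00 for all genes. In stationary phase it was -1.06, -0.37 and -0.72, against 0.05, -0.04 and 0.04. The share of members below 0 was 62.5, 79.2 and 77.8% in mid-exponential phase and 87.0, 55 and 78.3% in stationary phase. Among all genes those shares were 50.7, 53.5 and 49.5%, then 46.8, 52.2 and 47.5%. By the share below 0, members came closest to all genes on stationary array 2, and by the median on mid-exponential array 1. Over the 18 members with a ratio on all arrays the medians were -0.21, -0.20 and -0.41 in mid-exponential phase and -1.03, -0.37 and -0.92 in stationary phase. Stationary arrays 1 and 3 thus had the lowest medians in this fixed set of members too.

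**Figure D1:**
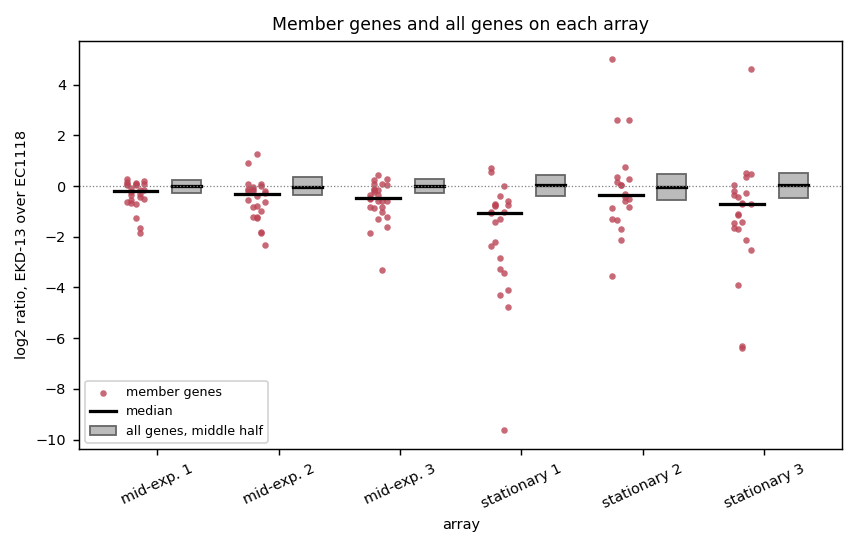
Each red point is the log2 ratio of EKD-13 over EC1118 (vertical axis) of a member gene on one of the 6 arrays (horizontal axis), the bars are medians, and the grey boxes run from the lower to the upper quartile of all genes. The members' median is below that of all genes on every array, from -0.21 on mid-exponential array 1 to -1.06 on stationary array 1.

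By the authors' own calls, at an adjusted p under 0.05 in the authors' deposited table, 11 of the 30 members were lower in EKD-13 in mid-exponential phase, where 4.63% of all genes were. Another count of 11 of 30 was lower in stationary phase, where 2.14% of all genes were. None was called higher in either phase, where 5.67 and 2.04% of all genes were. The mid-exponential calls were DCS2, HSP12, HOR7, STF2, CTT1, SOD2, PRX1, GRE3, GCY1, GAD1 and MSC1. The stationary calls were MSN2, HSP12, SIP18, DDR2, STF2, CTT1, SOD2, TRX2, GND2, GAD1 and MSC1. HSP12, STF2, CTT1, SOD2, GAD1 and MSC1 were on both lists, 54.5% of each. Among all genes the 52 called lower in both phases made up 17.6% of the mid-exponential and 38.0% of the stationary lower calls. The members' median in the authors' table was -0.19 and -0.39 in the 2 phases, against -0.01 and 0.005 for all genes.

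**Figure D2:**
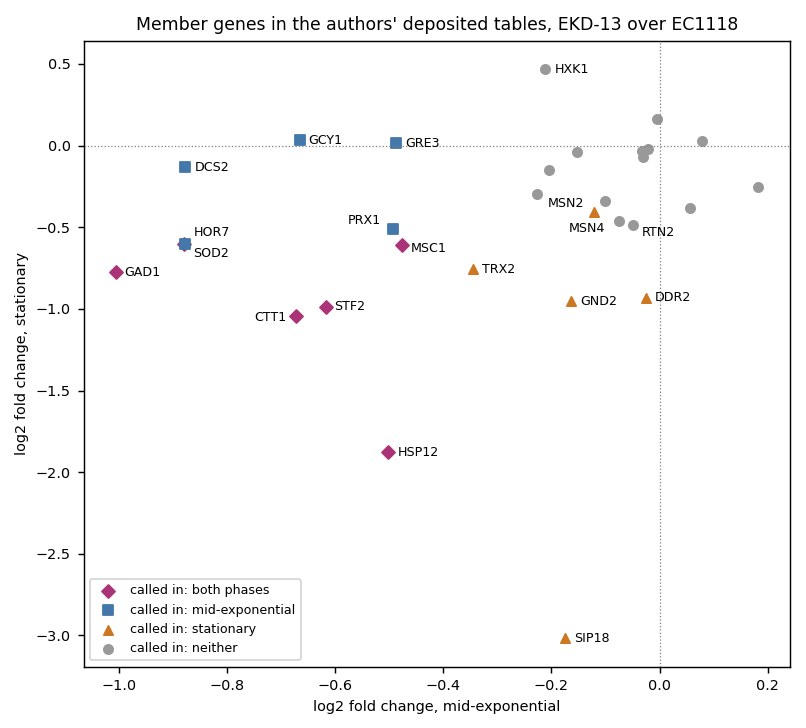
Each point is a member gene placed by its log2 fold change, EKD-13 over EC1118, in the authors' deposited tables, mid-exponential on the horizontal and stationary on the vertical axis, with marker shape for the phases in which the authors called it. SIP18 lies lowest at -3.02 in stationary phase with -0.18 in mid-exponential phase, while GCY1 and GRE3 are low in mid-exponential phase alone, and SOD2 and HOR7 overlap.

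The limma model over the 6 arrays called fewer genes. In mid-exponential phase it called 0 of the 20 tested members, where 0.210% of all genes passed. At an unadjusted p under 0.05, 3 members were lower (GCY1, SOD2 and MSC1), where 5.34% of all genes were. In stationary phase it called SIP18 lower, 1 of 20, where 4.76% of genes passed in either direction and 1.77% were lower. At an unadjusted p under 0.05, 10 of 20 members were lower in stationary phase, where 10.5% of all genes were. For the difference between phases it called 0 of 20, where 0.117% of genes passed (5 of 4289). With the array number as a replicate block it again called 0 members, and 1 gene in all. SIP18, GRE1 and GPX1 were lower in stationary than in mid-exponential phase at an unadjusted p under 0.05, where 5.81% of genes were, and GCY1 was higher in stationary phase. The median estimate of the tested members was -0.30 and -0.76 in the 2 phases, against -0.01 and -0.02 over all tested genes. Without stationary array 2 the stationary calls were 5, of 19 tested and all lower: STF2, MSC1, ALD3, SIP18 and RTN2. Over all genes tested without that array 4.18% were called lower, so that lower calls were more frequent among genes at large as well. Array 2 was set apart by values of these same arrays, so the calls without it describe the remaining arrays and add no support.

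**Figure D3:**
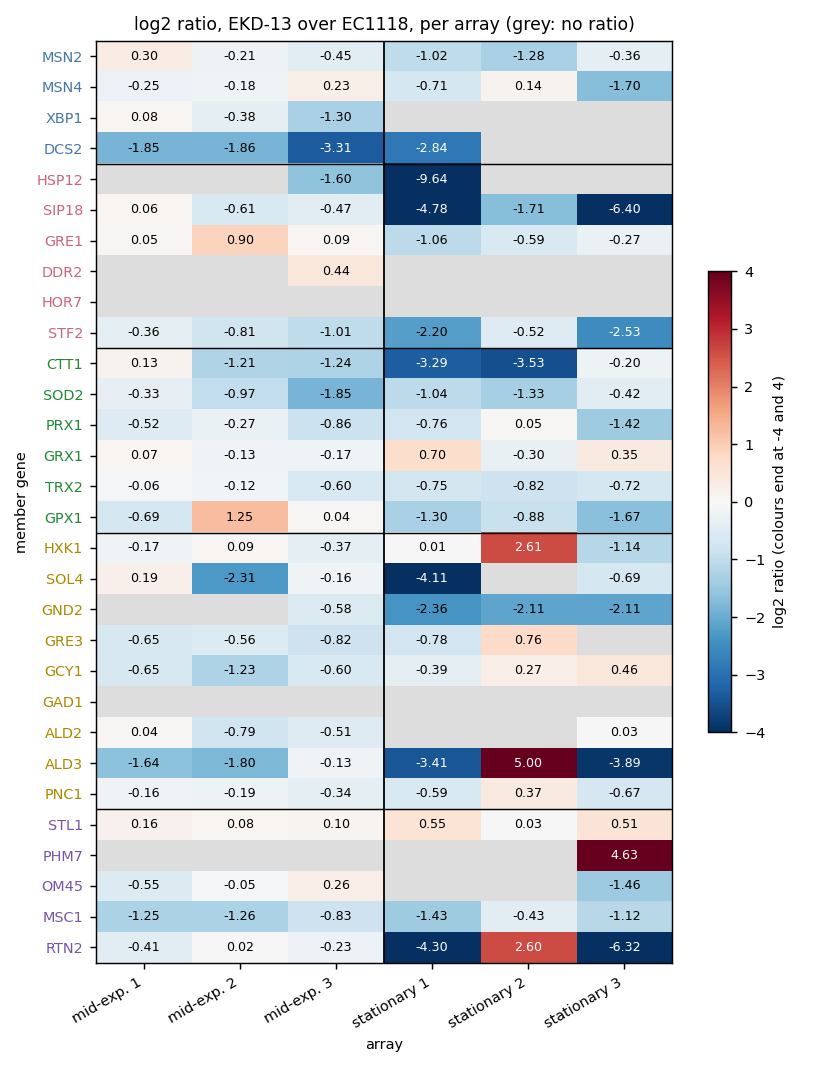
Log2 ratios of EKD-13 over EC1118 for the 30 member genes (rows, name colours and lines marking the 5 role groups) on the 6 arrays (columns), with blue for lower and red for higher in the mutant and grey for no ratio. STF2, SOD2, MSC1 and TRX2 are below 0 on all 6 arrays, while ALD3 and RTN2 are above 0 on stationary array 2 and below 0 on the other stationary arrays.

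Sign alone gives a view that needs no model. Below 0 on all 3 mid-exponential arrays were 10 of the 24 members measured on them (DCS2, STF2, SOD2, PRX1, TRX2, GRE3, GCY1, ALD3, PNC1 and MSC1), where 25.8% of all such genes were. Below 0 on all 3 stationary arrays were 10 of 19 (MSN2, SIP18, GRE1, STF2, CTT1, SOD2, TRX2, GPX1, GND2 and MSC1), where 20.0% were. Only STF2, SOD2, TRX2 and MSC1, 4 of 18, were below 0 on all 6 arrays, where 8.41% of genes were. Above 0 on all 3 arrays were GRE1 and STL1 in mid-exponential phase (2 of 24, where 24.4% of genes were) and STL1 in stationary phase (1 of 19, where 19.5% were). On stationary arrays 1 and 3 together, 16 of 20 members were below 0, where 32.8% of genes were.

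Among the regulators, the transcript of MSN2 itself was lower in stationary phase. MSN2 had ratios of 0.30, -0.21 and -0.45 on the mid-exponential arrays and -1.02, -1.28 and -0.36 on the stationary arrays. Its stationary arrays were all below 0, whereas the mid-exponential arrays lay on both sides of it. The stationary mean was -0.89 ± 0.48 (SD, n = 3; limma adjusted p = 0.093), and MSN2 fell by 0.41 on the log2 scale in the authors' deposited table (adjusted p = 0.034). The change between phases, -0.77, did not pass (limma adjusted p = 0.416).

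MSN4 encodes the paralogue of Msn2. It had -0.25, -0.18 and 0.23 in mid-exponential phase and -0.71, 0.14 and -1.70 in stationary phase, where array 2 had the opposite sign to the others. Neither phase passed (limma adjusted p = 0.975 and 0.239). In the authors' deposited table the stationary value of MSN4 was -0.46 (adjusted p = 0.137).

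DCS2 encodes a stress-induced relative of the mRNA decapping scavenger Dcs1, and XBP1 a repressor induced by stress and starvation. DCS2 was at -1.85, -1.86 and -3.31 on the mid-exponential arrays, a mean of -2.34 ± 0.84 (SD, n = 3). All 3 values were well below 0, and DCS2 fell by 0.88 in the authors' deposited table (adjusted p = 0.0060). Its only stationary ratio was -2.84, from 1 spot on array 1, and the authors' stationary value was -0.13 (adjusted p = 0.496), for a gene in the dimmest 25% there. XBP1 was at 0.08, -0.38 and -1.30 in mid-exponential phase, with paired spots of 1.08 and -1.84 on array 2, and had no stationary ratio.

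SIP18 gave the lowest stationary mean of the tested members. It encodes a hydrophilin, a small water-loving protein made under osmotic stress and drying. SIP18 was at 0.06, -0.61 and -0.47 on the mid-exponential arrays and at -4.78, -1.71 and -6.40 on the stationary arrays. The phases did not overlap, and array 2 was the least low of the stationary arrays, with paired spots of -0.52 and -2.91. The stationary mean was -4.30 ± 2.38 (SD, n = 3), which is 19.7-fold lower in EKD-13 (limma adjusted p = 0.039). In the authors' deposited table SIP18 was 8.09-fold lower in stationary phase (adjusted p = 0.0042). The difference between the phases was -3.96 with a limma SE of 1.13 (adjusted p = 0.258). Over the alternative models the stationary adjusted p ran from 0.0078, without stationary array 2, to 0.262, with each phase fitted on its own.

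STF2, which encodes a hydrophilin first described as a stabilising factor of the mitochondrial ATP synthase complex, was low throughout. It was at -0.36, -0.81 and -1.01 in mid-exponential phase and at -2.20, -0.52 and -2.53 in stationary phase. All 6 arrays were below 0, and stationary array 2 lay within the mid-exponential range. The stationary mean was -1.75 ± 1.07 (SD, n = 3; limma adjusted p = 0.063), and without stationary array 2 it was -2.36 (adjusted p = 0.010). STF2 fell by 0.62 and 0.99 in the authors' deposited tables of the 2 phases (adjusted p = 0.0033 and 0.028).

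HSP12 encodes a small membrane-associated stress protein that is a standard reporter of Msn2 and Msn4 activity. It had ratios on 2 arrays only: -1.60 on mid-exponential array 3 and -9.64 on stationary array 1, where it rested on 1 spot. HSP12 fell by 0.50 in mid-exponential phase (adjusted p = 0.029) and by 1.88 in stationary phase (adjusted p = 0.031) in the authors' deposited tables. DDR2, a stress gene first found by its response to DNA damage, had one array value, 0.44 on mid-exponential array 3, and fell by 0.93 in the authors' deposited stationary table (adjusted p = 0.025). HOR7, a relative of DDR2 named for its response to hyperosmolarity, fell by 0.88 in mid-exponential phase in the authors' deposited table (adjusted p = 0.0026) and was at -0.60 in stationary phase (adjusted p = 0.218). DDR2 and HOR7 are alike enough in sequence that their probes may share transcript, which makes their separate values uncertain.

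GRE1, a hydrophilin gene related to SIP18, differed in sign between phases. It was at 0.05, 0.90 and 0.09 in mid-exponential phase and at -1.06, -0.59 and -0.27 in stationary phase, with no overlap. Neither phase passed (limma adjusted p = 0.611 and 0.178). SIP18 and GRE1 also share sequence, although their stationary means, -4.30 and -0.64, were far apart.

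In peroxide and superoxide defence, the genes of the cytosolic catalase and of the mitochondrial superoxide dismutase were both lower in both phases by the authors' calls. CTT1, the catalase gene, was at 0.13, -1.21 and -1.24 in mid-exponential phase and at -3.29, -3.53 and -0.20 in stationary phase. Here stationary array 3, not array 2, was the one near 0. The stationary mean was -2.34 ± 1.86 (SD, n = 3; limma adjusted p = 0.103), and without stationary array 3 it was -3.41 (adjusted p = 0.040). Array 3 was picked by its value for this gene, so the latter p-value adds no support. Without array 2 CTT1 was not called. CTT1 fell by 0.67 and 1.04 in the authors' deposited tables of the 2 phases (adjusted p = 0.037 in each).

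SOD2, the gene of the manganese superoxide dismutase, was at -0.33, -0.97 and -1.85 in mid-exponential phase and at -1.04, -1.33 and -0.42 in stationary phase. All 6 arrays were below 0 and the phases overlapped. The means were -1.05 ± 0.77 and -0.93 ± 0.47 (SD, n = 3 each; limma adjusted p = 0.234 and 0.152). SOD2 fell by 0.88 and 0.61 in the authors' deposited tables (adjusted p = 0.0068 and 0.042).

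TRX2 encodes the cytoplasmic thioredoxin that Yap1 induces. It was at -0.06, -0.12 and -0.60 in mid-exponential phase and at -0.75, -0.82 and -0.72 in stationary phase. Its stationary arrays were the closest to each other of the tested members measured on all 3, and array 2 was no exception for this gene. The stationary mean was -0.76 ± 0.05 (SD, n = 3; limma adjusted p = 0.062), and TRX2 fell by the same 0.76 in the authors' deposited table (adjusted p = 0.00062).

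PRX1, the mitochondrial peroxiredoxin gene, was at -0.52, -0.27 and -0.86 in mid-exponential phase and at -0.76, 0.05 and -1.42 in stationary phase. Array 2 was the only one not below 0. PRX1 fell by 0.49 in the authors' deposited mid-exponential table (adjusted p = 0.0051), and its stationary value was -0.51 (adjusted p = 0.115).

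GPX1, a glutathione peroxidase gene, was at -0.69, 1.25 and 0.04 in mid-exponential phase and at -1.30, -0.88 and -1.67 in stationary phase, where array 2 rested on 1 spot. The phases did not overlap. Its stationary mean of -1.28 ± 0.40 (SD, n = 3) did not pass (limma adjusted p = 0.104), nor did its authors' value of -0.38 (adjusted p = 0.055 in the authors' deposited table). GRX1, a glutaredoxin gene, stayed near 0, between -0.17 and 0.07 in mid-exponential phase and between -0.30 and 0.70 in stationary phase, where arrays 1 and 2 rested on 1 spot each. Its limma adjusted p was 0.945 and 0.521.

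**Figure D4:**
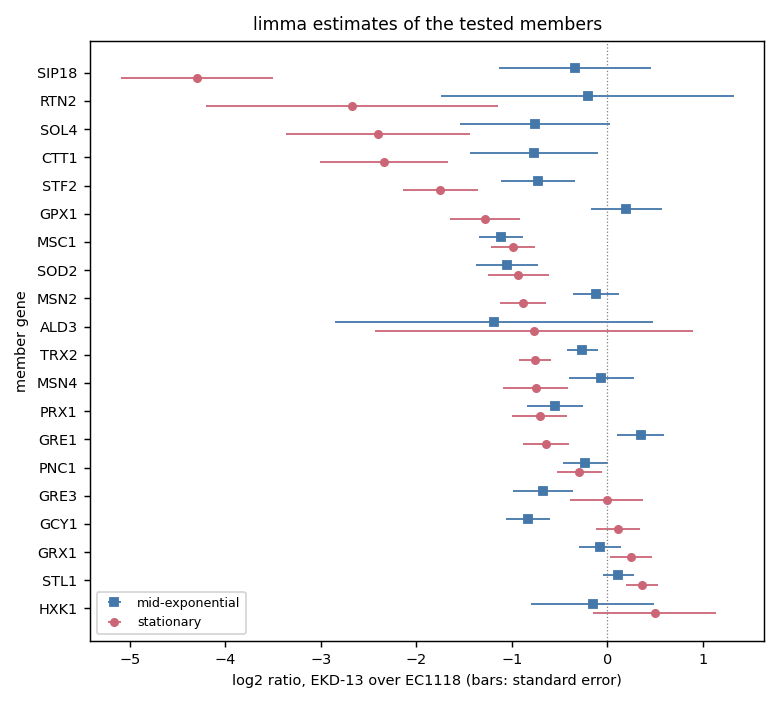
Limma estimates of the log2 ratio of EKD-13 over EC1118 (horizontal axis) for the 20 tested member genes (vertical axis), blue squares for mid-exponential and red circles for stationary phase, with standard errors as bars. SIP18 lies lowest at -4.30 in stationary phase, and the bars of RTN2 and ALD3 are the widest.

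The metabolic enzymes with array values all had mid-exponential means below 0, but their stationary values differed in sign. GRE3 and GCY1 encode aldo-keto reductases, of the aldose reductase and glycerol dehydrogenase type. GRE3 was at -0.65, -0.56 and -0.82 on the mid-exponential arrays and at -0.78 and 0.76 on stationary arrays 1 and 2. GCY1 was at -0.65, -1.23 and -0.60 in mid-exponential phase and at -0.39, 0.27 and 0.46 in stationary phase. Both were below 0 on every mid-exponential array and on both sides of 0 in stationary phase. GRE3 fell by 0.49 and GCY1 by 0.67 in the authors' deposited mid-exponential table (adjusted p = 0.0048 and 0.0030), while their stationary values there were 0.02 and 0.03. The change of GCY1 between phases was 0.94 and did not pass (limma adjusted p = 0.313).

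GND2 and SOL4 encode the minor, stress-linked forms of the pentose phosphate enzymes 6-phosphogluconate dehydrogenase and 6-phosphogluconolactonase. GND2 was at -2.36, -2.11 and -2.11 on the stationary arrays, a mean of -2.19 ± 0.14 (SD, n = 3). These means are close to each other, but on array 2 the paired spots were -0.49 and -3.74. With a single mid-exponential ratio of -0.58, GND2 was not tested by limma, and it fell by 0.95 in the authors' deposited stationary table (adjusted p = 0.025). SOL4 was at 0.19, -2.31 and -0.16 in mid-exponential phase and at -4.11 and -0.69 on stationary arrays 1 and 3. Mid-exponential array 2 and both stationary arrays rested on 1 spot each. SOL4 did not pass in either phase (limma adjusted p = 0.770 and 0.213).

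GAD1, the glutamate decarboxylase gene, had the lowest mid-exponential value of the members in the authors' deposited table, at -1.01 or 2.01-fold lower in EKD-13 (adjusted p = 0.0018). GAD1 fell by 0.77 in stationary phase there (adjusted p = 0.031). PNC1, the nicotinamidase gene, was at -0.16, -0.19 and -0.34 in mid-exponential phase and at -0.59, 0.37 and -0.67 in stationary phase. Array 2 was again the one above 0, from 1 spot, and neither phase passed (limma adjusted p = 0.756 and 0.481).

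HXK1 and ALD3 differed most in stationary array 2 among the enzymes. HXK1, the hexokinase gene repressed by glucose, was at -0.17, 0.09 and -0.37 in mid-exponential phase and at 0.01, 2.61 and -1.14 in stationary phase. ALD3, a cytoplasmic aldehyde dehydrogenase gene, was at -1.64, -1.80 and -0.13 in mid-exponential phase and at -3.41, 5.00 and -3.89 in stationary phase, where arrays 1 and 2 rested on 1 spot each. Array 2 was the highest stationary array for both. The stationary mean of ALD3 was -0.77 ± 5.00 (SD, n = 3; limma adjusted p = 0.813), and without array 2 it was -3.65 (adjusted p = 0.017). HXK1 averaged 0.50 ± 1.92 in stationary phase (SD, n = 3; limma adjusted p = 0.680). ALD2, the tandem neighbour of ALD3 on chromosome XIII, was at 0.04, -0.79 and -0.51 in mid-exponential phase and at 0.03 on stationary array 3, its only stationary ratio. The near-identical sequences of ALD2 and ALD3 may share label on the array, so that their separate values are uncertain.

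Of the membrane and organelle proteins, MSC1 was lower throughout. MSC1 encodes a protein found to affect meiotic recombination between sister chromatids. It was at -1.25, -1.26 and -0.83 in mid-exponential phase and at -1.43, -0.43 and -1.12 in stationary phase, all below 0. The means were -1.11 ± 0.25 and -0.99 ± 0.51 (SD, n = 3 each; limma adjusted p = 0.123 and 0.067). Without stationary array 2 the stationary mean was -1.27 (adjusted p = 0.027). MSC1 fell by 0.48 and 0.61 in the authors' deposited tables (adjusted p = 0.024 and 0.034).

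RTN2, a reticulon gene of the endoplasmic reticulum, had the widest stationary spread after ALD3. It was at -0.41, 0.02 and -0.23 in mid-exponential phase and at -4.30, 2.60 and -6.32 in stationary phase. Stationary arrays 2 and 3 rested on 1 spot each, and array 2 had the opposite sign. The stationary mean was -2.67 ± 4.68 (SD, n = 3; limma adjusted p = 0.336), and without array 2 it was -5.31 (adjusted p = 0.0098). In the authors' deposited table RTN2 was at -0.49 (adjusted p = 0.360).

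STL1, the gene of the glycerol-proton symporter, was above 0 on all 6 arrays, at 0.16, 0.08 and 0.10 in mid-exponential phase and at 0.55, 0.03 and 0.51 in stationary phase. These values were small and did not pass (limma adjusted p = 0.853 and 0.244). OM45, a gene of the mitochondrial outer membrane, was at -0.55, -0.05 and 0.26 in mid-exponential phase and at -1.46 on stationary array 3, where its paired spots were -3.14 and 0.22. PHM7, a membrane protein gene, had a single spot, 4.63 on stationary array 3. The authors' deposited tables gave both OM45 and PHM7 values between -0.02 and 0.08.

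The effect of stationary array 2 was uneven across the role groups. Of the 19 members with a ratio on all 3 stationary arrays, 10 were highest on array 2 (MSN4, SIP18, STF2, PRX1, GPX1, HXK1, ALD3, PNC1, MSC1 and RTN2), as were 34.9% of all such genes. MSN4, PRX1, ALD3, PNC1 and RTN2 were above 0 on array 2 only, 5 of 19, as were 436 of the 3104 genes so measured. The metabolic enzymes had medians of -0.78, 0.57 and -0.70 on stationary arrays 1 to 3, and peroxide and superoxide defence had -0.90, -0.85 and -0.57. The enzymes' median was above 0 on array 2 alone, while that of the peroxide and superoxide genes was below 0 on all 3.

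**Figure D5:**
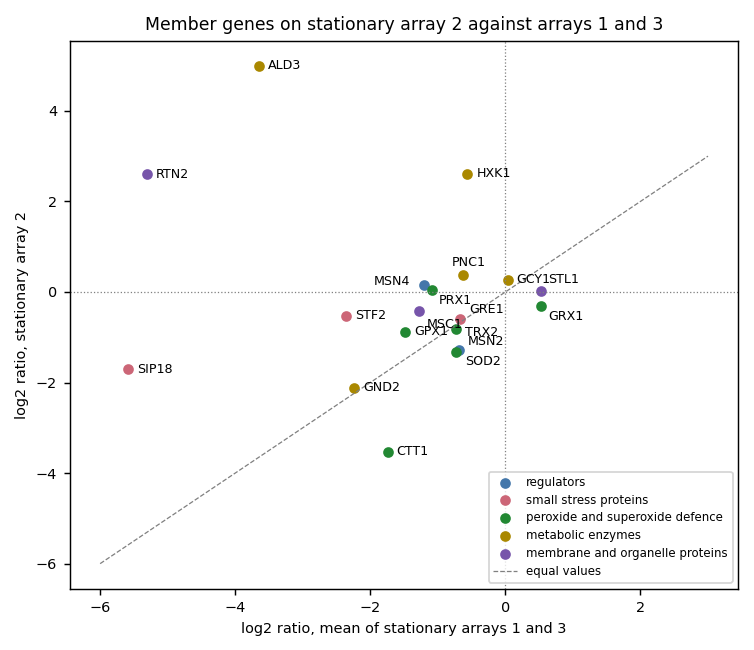
Each point is a member gene with a ratio on all 3 stationary arrays, placed by the mean log2 ratio of EKD-13 over EC1118 on arrays 1 and 3 (horizontal axis) and by its ratio on array 2 (vertical axis), coloured by role group, with a dashed line of equal values. ALD3, RTN2 and HXK1 lie far above the line, with 5.00, 2.60 and 2.61 on array 2, and CTT1 lies below it at -3.53.

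The authors' values were smaller in size than the array means. The mean of a member's arrays had the sign of the authors' table for 25 of 27 members in mid-exponential phase and 23 of 26 in stationary phase, and was the larger in size for 24 of 27 and 24 of 26. Of the 9 members in each phase that the authors called and that had a ratio, 24 of 25 array values in mid-exponential phase and 25 of 25 in stationary phase were below 0. Those calls rest on the same arrays, so this agreement was built in and is no separate support. Over all genes that the authors called, 98.6 to 100% had the authors' sign on each array.

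Several members have a paralogue outside the list, which often serves growing cells. HXK2, which encodes the main hexokinase of growth on glucose, was at 0.97, 0.35 and 0.75 in mid-exponential phase and at 2.13 and 1.17 on stationary arrays 1 and 2, all above 0. HXK2 rose by 0.56 in the authors' deposited mid-exponential table (adjusted p = 0.013), and its stationary value was 0.24 (adjusted p = 0.183). GRX2, the partner of GRX1, fell by 0.73 there in mid-exponential phase (adjusted p = 0.0093), with array values of -0.31, -1.11 and -1.81. It was at -0.61 and -0.95 on stationary arrays 1 and 2.

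GND1 and SOL3, the major forms beside GND2 and SOL4, were above 0 on all 3 stationary arrays, at 0.37, 0.41 and 0.44 for GND1 and at 0.71, 0.55 and 0.30 for SOL3. Neither passed in stationary phase (limma adjusted p = 0.181 and 0.106). GPX2, RTN1 and YPR1, partners of GPX1, RTN2 and GCY1, had values between -0.23 and -0.02 in the authors' deposited tables and were not called. The array ratios of GPX2 were larger, at -0.82 on mid-exponential array 3 and at -1.04 and -2.10 on stationary arrays 1 and 3. The remaining partners lie on chromosome XII, whose 551 genes had a median of 0.34 in mid-exponential and 0.20 in stationary phase in the authors' deposited tables, with 232 and 62 of them called higher. The values of these partners stand among higher values along that chromosome. TMA10, the partner of STF2, rose by 1.25 and 0.58 in the authors' deposited tables of the 2 phases (adjusted p = 0.0013 and 0.0086), DCS1 rose by 0.58 in mid-exponential phase (adjusted p = 0.0039), and TRX1 was at 0.27 and -0.29 without a call.

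Other genes of oxidant defence were counted without those on chromosome XII. Of 25 such genes the authors called 4 lower and 0 higher in each phase. Among all genes the authors called 4.63 and 2.14% lower in the 2 phases and 5.67 and 2.04% higher. SOD1, the cytosolic superoxide dismutase gene, fell by 0.91 and 1.19 in the authors' deposited tables (adjusted p = 0.0029 and 0.0071). TSA2, TSA1 and GTT1 joined it in mid-exponential phase, at -0.69, -0.50 and -0.42, and OYE2, SRX1 and CCS1 in stationary phase, at -0.83, -0.78 and -0.50. Limma over the arrays called 2 of the 21 tested, both lower in stationary phase, where 1.77% of all tested genes were called lower. They were SRX1, the sulfiredoxin gene, at -1.83 ± 0.46 (SD, n = 3; adjusted p = 0.032), and OYE2, an old yellow enzyme gene, at -0.90 ± 0.15 (SD, n = 3; adjusted p = 0.032).

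Of 22 other genes known as targets of Msn2 and Msn4, the authors called 9 lower in mid-exponential phase, where 4.63% of all genes were. In stationary phase the authors called 4 lower, where 2.14% of all genes were, and 0 were called higher in either phase. The largest were RTC3 (-1.04), CYC7 (-0.86), YGP1 (-0.85) and YMR090W (-0.85) in mid-exponential phase, and DDR48 (-1.11), YMR090W (-0.68), NNR1 (-0.66) and PAI3 (-0.65) in stationary phase, all from the authors' deposited tables. Limma called 4 of 15 lower in stationary phase: DDR48 at -1.11, YMR090W at -0.98, NNR1 at -1.92 and RTC3 at -2.70, with adjusted p of 0.036, 0.036, 0.030 and 0.037. Over all tested genes 1.77% were called lower. For NNR1 and RTC3 those means rest on arrays 1 and 3 alone, and the stationary value of RTC3 in the authors' deposited table, where it was among the dimmest 25% of genes, was -0.12 (adjusted p = 0.518).

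In Ras-protein kinase A, TOR and Rim15 signalling 21 genes were counted. CDC25, on chromosome XII, was left out and rose by 0.49 in the authors' deposited mid-exponential table (adjusted p = 0.0072). Among the 21, RAS2 fell by 0.43 in mid-exponential phase and PDE2 by 0.41 in stationary phase in the authors' deposited tables. There 4.63 and 2.14% of all genes were called lower in the 2 phases. Limma called 0 of the 16 tested in stationary phase, where 4.76% of all genes passed, and 2 of them had an unadjusted p under 0.05, as did 1029 of all 4289 genes. In the HOG pathway and glycerol metabolism 11 genes were counted, without 3 on chromosome XII. Those 3, HOG1, SSK1 and FPS1, rose by 0.62, 0.68 and 0.92 in the authors' deposited mid-exponential table (adjusted p = 0.0019, 0.0012 and 0.00043). Among the 11, the authors called 1 lower and 0 higher in each phase, where 4.63 and 2.14% of all genes were called lower. GPP2 fell by 0.62 in mid-exponential phase and GPP1 by 0.88 in stationary phase, both encoding glycerol phosphatases. GPP1 was at -1.08, -1.24 and -2.21 on the stationary arrays (limma adjusted p = 0.032).

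Markers of sporulating cells, the other state a diploid culture could hold, were mostly near the floor of the arrays. Of 12 such markers the authors called 0 in either phase, where 658 and 267 of all 6388 genes were called. In mid-exponential phase 11 markers, and in stationary phase 9, were in the dimmest 25% of genes. Brighter genes among them were SPS4, at -1.38 and -0.53 on stationary arrays 1 and 3 (limma adjusted p = 0.137), and, in stationary phase, DIT1 and SPS100, a spore wall gene. DIT1 lay above 0, at 0.74 and 0.12 on stationary arrays 1 and 3. It was not tested by limma and was at 0.08 in the authors' deposited table (adjusted p = 0.744). SPS100 was at -5.70 and -7.74 on stationary arrays 1 and 2, the latter from 1 spot (limma adjusted p = 0.012). It was at -2.36 in the authors' deposited table (adjusted p = 0.130). The part of these markers in the members' stationary values was not tested.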

How the data were processed

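Each array held RNA of EKD-13 and EC1118 in 2 dyes. The authors deposited log2 ratios per spot and array, and a table per phase with a log2 fold change and a p-value, raw and adjusted, per gene. The submitters' processing notes name R 2.9.2 and limma, limma without a version. The sources used here do not give the background correction, the normalization or the spot filter. Of the 6388 genes, 5849 took the symbol of the RefSeq reference and 539 kept the name in the files.

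Spots took gene names through plate wells, and spots of a gene were averaged. Row E of plates 10 to 19 was left out (228 genes, HOR7 and GAD1 among them), because its array values followed the authors' deposited values poorly (r = 0.383 and 0.262 in the 2 phases, against 0.908 and 0.662 for other wells).

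Tests used limma 3.58.1 in R 4.3.3, and Python 3.11.15 with numpy 2.4.6, pandas 2.3.3 and matplotlib 3.10.9 served for tables and plots. All 6 arrays entered 1 model with a mean for each phase (4 residual and 2.28 prior degrees of freedom). A gene was tested where 2 or more arrays per phase had measured it, two-sided, with Benjamini-Hochberg adjustment over all 4289, and passed at an adjusted p under 0.05. Tested on simulated data over 4289 genes, the stationary comparison recovered 28, 76, 82 and 98% of genes set to -1, -2, -3 and -4. False calls numbered 5. The simulated noise was independent, with 1 spread per gene for both phases and no deviating array, so these rates may be too high for the stationary arrays.

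All 30 members are named. From other lists, genes past the threshold are named, at most the 4 largest in the authors' tables per list and phase, with every paralogue partner. A signalling gene that this rule would name is not reported here. GRE1 and OYE2 in the closing section follow from their signs. The members and lists were chosen with earlier results of these data known. Alternatives were a dye term, leaving out each array, scaling, centring, stricter and looser gene filters, array weights, spot agreement, chromosome XII left out, the doubtful wells kept, the authors' tables and a replicate block. Promoter motifs were not analysed here.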

Additional observations from a re-analysis of the deposited data

Results flagged for a closer look

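GRE1 and OYE2 had opposite signs in the 2 phases on every array. GRE1 was above 0 on the 3 mid-exponential arrays and below 0 on the 3 stationary arrays, a difference of -0.99 (stationary minus mid-exponential, limma SE 0.34, adjusted p = 0.317). OYE2, an oxidant defence gene that is no member, was at 0.14, 0.10 and 0.14 in mid-exponential phase and at -0.77, -0.87 and -1.07 in stationary phase, a difference of -1.03 (limma SE 0.20, adjusted p = 0.164). Neither difference passed the threshold. With 3 arrays per phase, no test for a single outlying array was made.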

How the results depend on the processing

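No estimate changed sign where it had been called. In mid-exponential phase the limma model called 0 tested members. It called 2 (GCY1 and MSC1) with arrays scaled to one spread or with array weights, and the authors' table called 11. Leaving out each array in turn gave 0 to 0. In stationary phase it called 1. It called 0 with a dye term, with scaled arrays, with each phase on its own or without chromosome XII, the authors' table called 11, and leaving out each array gave 0 to 5, with 5 when stationary replicate 2 was left out. The SIP18 call passed at an adjusted p of 0.039, but with a dye term it was 0.054 and without chromosome XII 0.0502. On leaving out each array, SIP18 was called in stationary phase only without stationary replicate 2. Between phases the limma model called 0 members, and leaving out each array gave 0 to 2 (SIP18 and RTN2 without stationary replicate 2). The members' median was -0.30 in mid-exponential phase (-0.45 to -0.24 on leaving out each array, lowest without mid-exponential replicate 1), -0.76 in stationary phase (-1.09 to -0.76, and -0.39 over all members in the authors' table) and -0.33 between phases (-0.57 to -0.14, -0.11 with arrays scaled to one spread, -0.16 with the doubtful wells kept, and -0.58 with array weights). Same-numbered arrays of the 2 phases deviated together weakly (r = 0.08, 0.21 and -0.05 over 3020 genes), although they share vessels in part, so the block was kept as an alternative. With a replicate block the median was -0.33, with 0 members called between phases and 1 of all genes, against 5.

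Over all genes the limma calls were 9, 204 and 5 in mid-exponential phase, stationary phase and between phases. A dye term gave 1, 73 and 2, scaled arrays 177, 27 and 4, array weights 356, 54 and 7, each phase on its own 0 and 0, no chromosome XII 2, 113 and 5, and the authors' own calls were 658 and 267. Leaving out each array gave 0 to 15, 6 to 355 and 1 to 21. The stationary count thus moved with single arrays and with the model. With 3 arrays a phase, and dim genes holding 15.8% of their possible stationary values against 62.5% in mid-exponential phase, a member that did not pass may still differ.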
